A study of Mus musculus with 6 samples.

Results

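The genes described here are named for proteins of the cytosolic ribosome. They were followed in white fat of mice given a high-fat diet, with or without tetrahydroberberrubine (THBru). They were chosen by name: every gene symbol of the form Rpl or Rps with a number and at most a short suffix, plus Rpsa, for which protein_coding was among the listed transcript types. Genes named as pseudogenes and the S6 kinases were left out. Of 32759 genes in the table, 85 had such a name, and 82 of these listed a protein_coding type. The other 3, Rpl32l, Rpl6l and Rps4l, were left out. By the prefix Rpl or Rps, 51 of the 82 genes were counted as large-subunit and 31 as small-subunit genes. Whether each encodes a protein of the mature ribosome was not examined. The 82 genes lie on 19 chromosomes, with 14 on chromosome 7.

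A ribosome is built from ribosomal RNA and 1 copy of most ribosomal proteins, with the acidic stalk proteins as the known exception, so cells make the proteins in matched amounts. Their mRNAs are among the most abundant of the cell and typically begin with a C followed by a run of pyrimidines, the terminal oligopyrimidine (TOP) start. Through this start, the mTORC1 kinase and the RNA-binding protein LARP1 set how much of the mRNA is translated, a step that mRNA levels do not show.

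The study asked which processes THBru, a small molecule of the protoberberine type, changes in white fat. The THBru group held 3 samples of white adipose tissue from mice on the high-fat diet (HFD) that received THBru at 50 mg/kg/day, and the HFD group held 3 samples from mice on the same diet without THBru. The labels give no strain, genotype, sex, age, fat depot or length of treatment, and no sample without the diet was analysed here. They do not say whether samples came from separate animals, so p-values cover the spread between the 6 samples only, and that spread may be technical. Poly(A) RNA was sequenced as a strand-marked library from each sample.

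Total counts were 67.2e6 to 72.1e6 in the THBru libraries and 69.3e6 to 77e6 in the HFD libraries, and no pair of libraries agreed within sampling noise. The THBru libraries stood apart from their tissue label in different ways. Genes of an 11-member seminal vesicle list made up 42.7, 0.080 and 0.093% of counts in THBru 1 to 3, against 0.053 to 0.064% in HFD libraries. A list of 13 epididymis genes took 0.021, 0.032 and 5.19% in THBru 1 to 3, against 0.015 to 0.045% in HFD libraries. All 12 markers of a general epithelium list had a higher fitted level in THBru, with summed shares of 0.047 to 0.197% in THBru and 0.001 to 0.013% in HFD, and only Krt5 in HFD 3 was at 0. The 12 mature adipocyte markers, none at 0 in any library, took 0.616, 2.99 and 0.333% of counts in THBru 1 to 3, against 2.498, 3.78 and 4.19% in HFD 1 to 3. The 12 macrophage markers, also never at 0, took 0.037 to 0.171% in THBru and 0.323 to 0.751% in HFD. In bulk tissue, fewer cells of a type and less RNA per cell cannot be told apart. THBru 2 carried 0.089% of counts in a list of 11 kidney genes, against at most 0.000577% in HFD libraries, and its macrophage share of 0.171% was below every HFD library. Because its adipocyte share was inside the HFD range, unlike those of THBru 1 and THBru 3, the results below are also given for THBru 2 against the HFD libraries. The part of these other tissues in the results was not tested.

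The sequences around the annotated starts of named genes are shown because the pyrimidine run at the start is the feature these mRNAs are known for. Whether a run lies near the annotated start differs among genes named below. Each is 80 bases, from 60 before the annotated start to 20 after it (RefSeq, GRCm38.p6), written 5′ to 3′ on the gene's strand. Capitals mark the first run of C followed by at least 6 C or T that touches the 25 bases on either side of the start. The windows are chr4:86857348-86857427 (minus strand) for Rps6, chr9:64173327-64173406 (plus) for Rpl4, chr10:128626487-128626566 (minus) for Rps26, chr5:115559407-115559486 (plus) for Rplp0, chrX:74270756-74270835 (plus) for Rpl10, chr4:152325666-152325745 (plus) for Rpl22 and chr17:24727766-24727845 (plus) for Rpl3l.
Rps6: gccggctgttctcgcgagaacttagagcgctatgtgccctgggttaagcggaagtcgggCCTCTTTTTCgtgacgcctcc
Rpl4: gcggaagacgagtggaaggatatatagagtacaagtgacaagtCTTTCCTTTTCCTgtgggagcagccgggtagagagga
Rps26: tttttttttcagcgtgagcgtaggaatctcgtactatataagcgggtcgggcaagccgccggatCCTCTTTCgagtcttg
Rplp0: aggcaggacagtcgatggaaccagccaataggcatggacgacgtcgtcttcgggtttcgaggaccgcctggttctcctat
Rpl10: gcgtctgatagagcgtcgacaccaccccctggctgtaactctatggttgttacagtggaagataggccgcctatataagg
Rpl22: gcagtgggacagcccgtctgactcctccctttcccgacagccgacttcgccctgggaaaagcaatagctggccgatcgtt
Rpl3l: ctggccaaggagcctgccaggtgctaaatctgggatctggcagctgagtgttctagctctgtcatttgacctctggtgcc
Rps6, Rpl4 and Rps26 hold such a run within this distance, of 10, 13 and 8 bases, while Rplp0, Rpl10, Rpl22 and Rpl3l do not hold one within it. The Rpl22 window does hold such a run upstream, which ends just outside this distance. The starts used in these samples were not measured. A gene without a run near its annotated start may therefore still have a TOP start. Among the 62 genes with a RefSeq promoter entry, 36 (58.1%) held such a run, against 25.6% of all 27025 genes with an entry. A C followed by at least 4 C or T exactly at an annotated start was found in 13 of the 62 genes (20.97%), against 3.01% of all genes. In the 300 bases of the promoter entry (250 before and 50 after the start), CCGGAAG, a core that ETS-family factors bind, stood on either strand in 25 genes (40.3%), against 9.93% of all genes. A match describes the letters and is not evidence of binding.

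In the HFD libraries the deposited FPKM, a level per transcript length, spanned a wide range over the 82 genes. Rplp0, the base of the ribosomal stalk, was the most abundant at 323 ± 21.8 FPKM (SD, n = 3), followed by Rpl4, which lines the exit tunnel, at 269 ± 23.1 FPKM. Rps6, the substrate of the S6 kinases, followed at 242 ± 5.76 FPKM and Rpl10, which joins the large subunit late, at 203 ± 18.9 FPKM. The HFD libraries of Rpl4 and Rps6 overlapped, whereas those of Rplp0 lay above those of Rpl4 and those of Rps6 above those of Rpl10. Over all 6 libraries the highest means were those of Rplp0, Rpl4 and Rpl10. At the low end stood Rpl22l1 at 2.73 ± 0.595 FPKM and Rpl3l at 0.096 ± 0.104 FPKM. The testis paralogs Rpl10l and Rpl39l were not tested for their low level, with all libraries at 0 except THBru 3, where they had 0.238 and 0.119 CPM (counts per 1e6 counts of the library). FPKM depends on the length it divides by, which was 1866 bases at the median of the 80 tested genes and ran between 396 (Rpl36) and 6482 (Rps15a) bases.

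The summed share of total counts taken by the ribosomal protein genes did not overlap between the groups and was higher in THBru. It was 1.199, 1.12 and 1.63% in THBru 1 to 3, against 1.01, 0.927 and 1.02% in HFD 1 to 3, or 1.31 ± 0.273% in THBru and 0.987 ± 0.0529% in HFD (SD, n = 3 each), a ratio of 1.33. On this scale THBru 3 was well above the others, and THBru 2 was the closest to HFD. The row CT010467, which the table types as rRNA, looked up after these values were seen, had 812, 1157 and 16305 CPM in THBru 1 to 3, against 795, 1034 and 1591 CPM in HFD 1 to 3, and was thus also highest in THBru 3; its part in the share was not tested. The sums on TMM-scaled CPM (counts per 1e6, scaled so that most genes match between libraries) were 18973, 9388 and 14586 in THBru 1 to 3. They were 9359, 9076 and 9491 in HFD 1 to 3. On that scale the groups overlapped, with THBru 2 inside the HFD range and THBru 1 the highest library. Of total counts, large-subunit genes took 0.773, 0.698 and 1.08% in THBru 1 to 3, against 0.627, 0.571 and 0.623% in HFD 1 to 3. Small-subunit genes took 0.426, 0.421 and 0.552% in THBru 1 to 3, against 0.384, 0.356 and 0.401% in HFD 1 to 3. Large-subunit counts per small-subunit count, a ratio that no scaling touches, was 1.81, 1.66 and 1.95 in THBru 1 to 3, against 1.63, 1.60 and 1.55 in HFD 1 to 3. The groups did not overlap in this ratio, although THBru 2 lay only just above HFD 1.

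**Figure D1:**
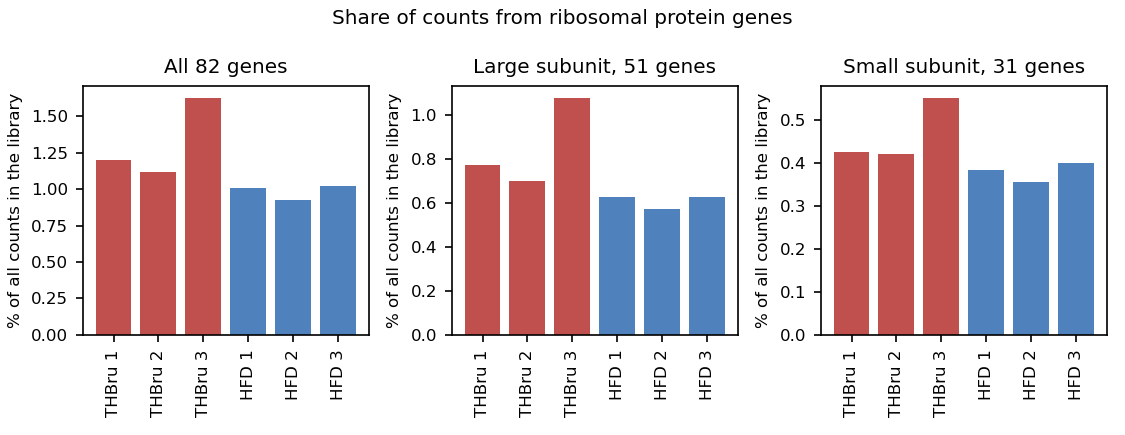
Share of all counts of a library (percent, axis from 0) taken by all 82 ribosomal protein genes, by the 51 large-subunit genes and by the 31 small-subunit genes; each bar is 1 library, THBru in red and HFD in blue. Every THBru bar is above every HFD bar, with THBru 3 the highest at 1.63% of counts for all 82 genes.

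No single ribosomal protein gene passed the test between the groups. Of the 80 tested genes, 0 had an adjusted p under 0.05 by edgeR's quasi-likelihood test with Benjamini-Hochberg adjustment over all 16140 tested genes, where 0.118% (19 genes, all higher in THBru) passed. At an unadjusted p under 0.05, 8 of the 80 were higher in THBru (10%) and 0 lower, against 13.9% higher and 8.93% lower of all tested genes, so the share of ribosomal protein genes was not above that of the table. DESeq2 called 3 of the 80 higher (Rpl17, Rpl22 and Rpl3) and 0 lower, of 10.7% of genes called higher and 7.08% called lower by that tool. The smallest edgeR adjusted p of the 80 was 0.171, for Rpl22. The fold changes lay close together. The median log2 fold change of THBru over HFD was 0.53 (1.44-fold), with the middle of the genes between 0.40 and 0.70, and 76 of 80 were positive. Over all tested genes the median was 0.08 and 54.4% were positive. The medians were 0.53 for 49 large-subunit genes and 0.51 for 31 small-subunit genes. The median standard error of a single gene was 0.31, so most single values lay within 2 standard errors of 0.

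**Figure D2:**
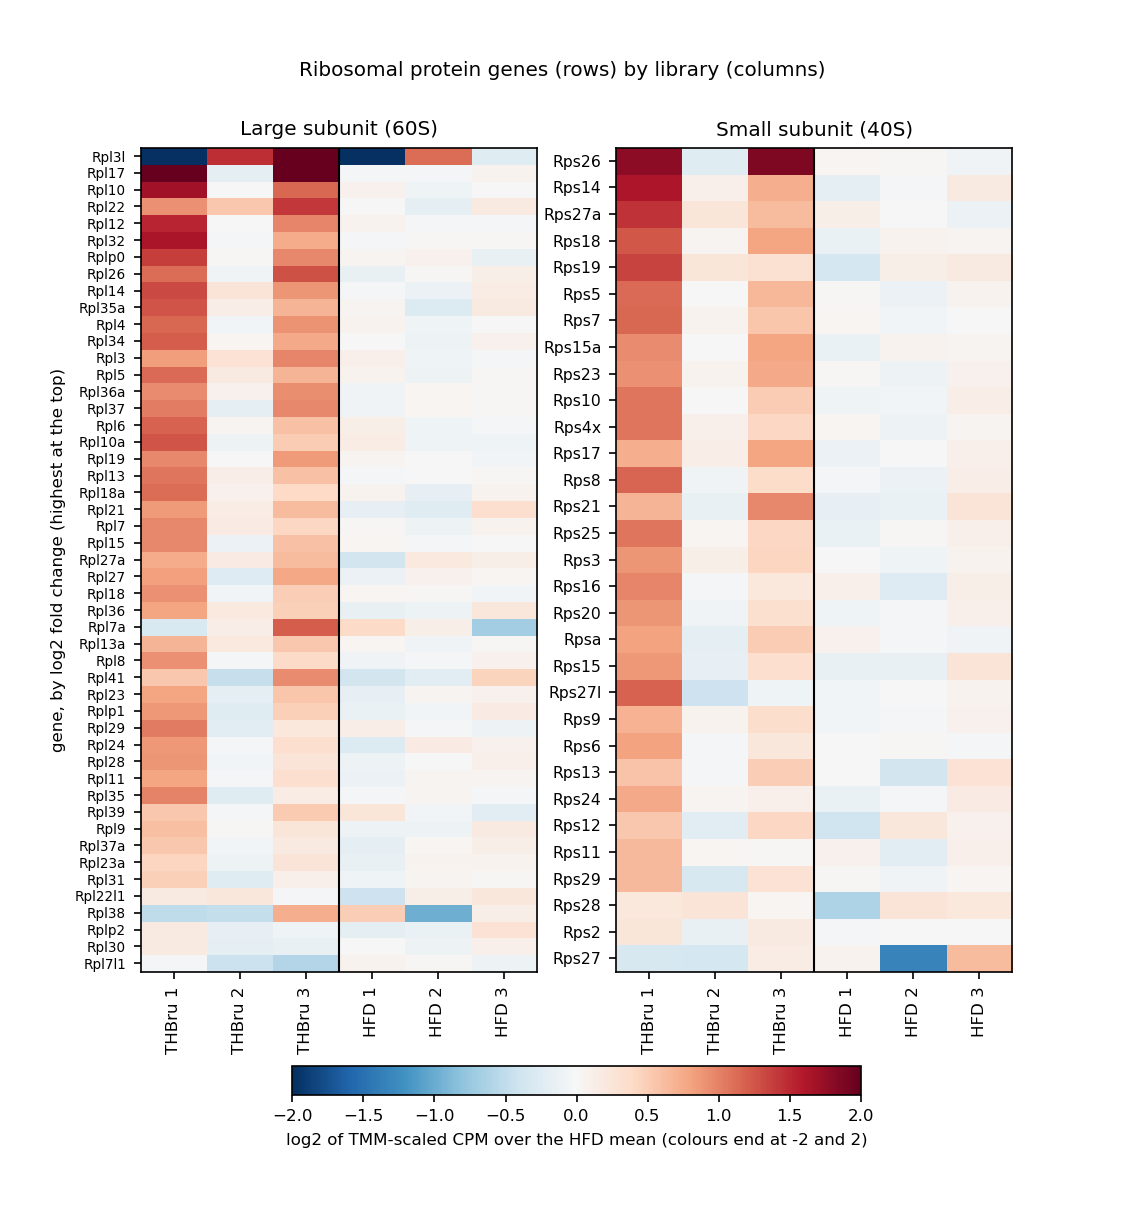
Each row is 1 of the 80 tested genes, ordered by log2 fold change within its subunit, and each column 1 library; colour is the log2 of TMM-scaled CPM over the mean of the HFD libraries, with the colours ending at -2 and 2. The THBru 1 and THBru 3 columns are red for nearly all genes (medians 0.90 and 0.51), and the THBru 2 column is near white (median -0.02).

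The THBru libraries differed from each other. On TMM-scaled CPM (counts per 1e6, scaled so that most genes match between libraries), the median log2 ratio of the 80 genes to the HFD mean was 0.90, -0.02 and 0.51 in THBru 1 to 3. In THBru 1, 72 of 80 genes lay above all HFD libraries and 0 below, and in THBru 3, 71 lay above and 3 below. In THBru 2, 18 lay above and 19 below, with the other 43 inside the HFD range. For all tested genes the share above the HFD range was 39.1, 32.8 and 42.3% in THBru 1 to 3, and the share below it was 38.3, 30.5 and 39.1%. On CPM of the total count, the medians were 0.15, 0.15 and 0.59 in THBru 1 to 3, with 45, 45 and 71 of 80 genes (56.2, 56.2 and 88.8%) above the HFD range and 11, 6 and 1 below, so the direction in THBru 2 depended on the scaling. For all tested genes, those medians were -0.77, 0.15 and 0.09, with 15.6, 45.4 and 45.3% above the HFD range and 68.6, 18.5 and 36.5% below. THBru 1 moved most between the scalings, with a TMM factor of 0.632, beside its seminal vesicle share of 42.7% of counts. Scaling by total counts moved the median of all genes by -0.13 on the log2 scale, and the ribosomal protein genes stood above that median by 0.38, against 0.45 with TMM. With THBru 2 alone against the HFD libraries, their median was 0.00 and 41 of 80 genes were positive, with 0 called, while edgeR called 2.17% of all genes higher and 0.0372% lower. Without THBru 1, the median was 0.26, and without THBru 3 it was 0.52. Without THBru 2, it was 0.73, and 14 of 80 genes (17.5%) rose, against 5.06% of all tested genes called higher and 4.55% lower.

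**Figure D3:**
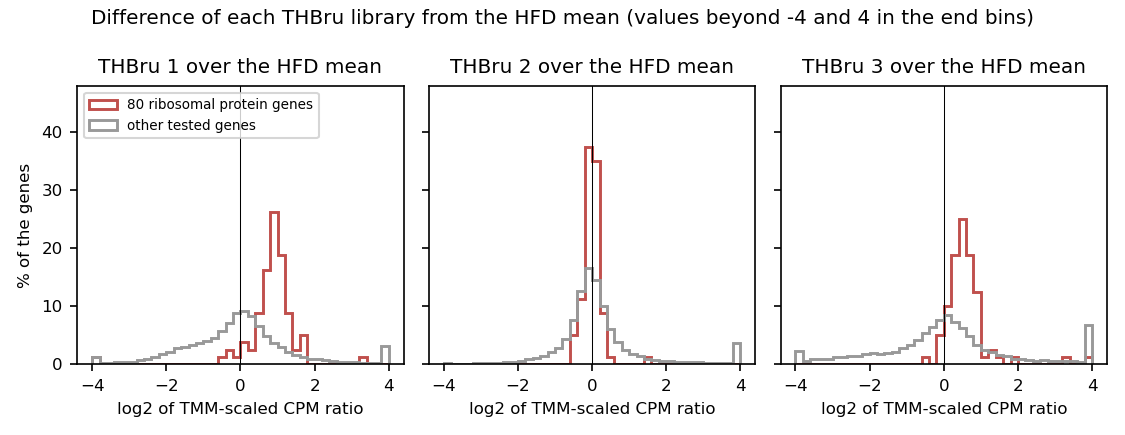
Distribution of the log2 ratio of TMM-scaled CPM to the HFD mean in each THBru library, as percent of the genes per bin, for the 80 ribosomal protein genes (red) and the other tested genes (grey). The red curve peaks to the right of 0 in THBru 1 and THBru 3 and at 0 in THBru 2 (medians 0.90, 0.51 and -0.02), and in every library it is narrower than the grey one.

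On TMM-scaled CPM, 15 of the 80 genes (18.8%) had groups that did not overlap, each higher in THBru, against 16.7% of all tested genes higher and 15.1% lower, a share near that of the table. On CPM of the total count, 32 genes (40%) were higher without overlap and 1, Rpl7l1, was lower, against 10.4% of all tested genes higher and 12.6% lower. The spread within a group also differed. The median coefficient of variation of the 80 genes was 33.5% among THBru libraries and 7.70% among HFD libraries, against 36.9 and 18.6% for all tested genes.

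The stalk recruits the elongation factors to the ribosome and consists of Rplp0 with the acidic proteins Rplp1 and Rplp2. Rplp0 (chr5:115559467-115563727) had 858, 631 and 1130 CPM in THBru 1 to 3, against 583, 564 and 511 CPM in HFD 1 to 3. All THBru libraries were above all HFD libraries on this scale, whereas THBru 2 was inside the HFD range on TMM-scaled CPM. Its log2 fold change was 0.89 (SE 0.41, edgeR with Benjamini-Hochberg adjusted p = 0.250). Rplp1 had 73.4, 64.1 and 98.5 CPM in THBru 1 to 3, against 62.2, 62.6 and 76.9 CPM in HFD 1 to 3, with overlap. Rplp2 had 32.1, 47.6 and 46.8 CPM in THBru 1 to 3, against 42.0, 41.4 and 58.5 CPM in HFD 1 to 3, and its lowest library was THBru 1. The log2 fold changes were 0.44 (SE 0.31) for Rplp1 and -0.01 (SE 0.21) for Rplp2, neither called, so within the stalk only Rplp0 stood above the median of the 80 genes.

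Rps6 and Rpsa, the small-subunit protein related to the laminin receptor, represent the small subunit. Rps6 (chr4:86854660-86857412) had 413, 438 and 491 CPM in THBru 1 to 3, against 406, 391 and 394 CPM in HFD 1 to 3. The groups did not overlap on this scale, but the lowest THBru library was close to the highest HFD library, and the groups overlapped after TMM scaling. Its log2 fold change was 0.38 (SE 0.30, edgeR adjusted p by Benjamini-Hochberg = 0.455). Rpsa had 639, 611 and 922 CPM in THBru 1 to 3, against 668, 582 and 599 CPM in HFD 1 to 3. Only THBru 3 was above the HFD range on this scale, and THBru 1 was above it too after TMM scaling. Its log2 fold change was 0.43 (SE 0.34). With THBru 2 alone, the fitted values were -0.01 for Rps6 and -0.16 for Rpsa.

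The 5 largest log2 fold changes belonged to Rpl3l, Rpl17, Rps26, Rpl10 and Rpl22. Rpl22 (chr4:152325742-152334070) encodes an RNA-binding protein of the large subunit and was the gene closest to the threshold. It had 65.8, 95.7 and 165 CPM in THBru 1 to 3, against 59.7, 49.4 and 67.8 CPM in HFD 1 to 3. THBru 1 was inside the HFD range on this scale, and the groups did not overlap after TMM scaling, where THBru was 0.996 higher on the log2 scale (SE 0.27, edgeR adjusted p by Benjamini-Hochberg = 0.171). It was also higher in THBru 2 alone, by 0.55 log2, and no 100-base stretch of its transcripts occurs in another annotated gene.

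Rpl10 (chrX:74270812-74273135) had 821, 483 and 1005 CPM in THBru 1 to 3, against 464, 388 and 439 CPM in HFD 1 to 3. On this scale THBru 1 and THBru 3 were far above HFD, and THBru 2 was just above the highest HFD library. After TMM scaling THBru 2 lay inside the HFD range. The log2 fold change was 1.10 (SE 0.46, edgeR with Benjamini-Hochberg adjusted p = 0.228), and it was 0.02 with THBru 2 alone. Rps26 (chr10:128624534-128626747), which sits where the mRNA leaves the ribosome, had 137, 62.7 and 253 CPM in THBru 1 to 3, against 69.5, 64.9 and 64.0 CPM in HFD 1 to 3. THBru 2 was the lowest of the 6 libraries, so the log2 fold change of 1.41 (SE 0.55, edgeR with Benjamini-Hochberg adjusted p = 0.211) rested on THBru 1 and THBru 3. With THBru 2 alone it was -0.23.

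Rpl3l (chr17:24727820-24736143) is the paralog of Rpl3 known from heart and skeletal muscle. It had 0, 0.541 and 34.7 CPM in THBru 1 to 3, against 0, 0.361 and 0.149 CPM in HFD 1 to 3. A single library, THBru 3, thus carried its log2 fold change of 6.003 (SE 2.89, edgeR with Benjamini-Hochberg adjusted p = 0.262). Muscle transcripts were looked up after these values were seen. Acta1, skeletal muscle actin, had 32.0, 6.69 and 2.43 CPM in THBru 1 to 3, against 23.9, 31.1 and 17.7 CPM in HFD 1 to 3, and Ckm, muscle creatine kinase, had 1.41, 0 and 0.923 CPM in THBru 1 to 3 and 0 in HFD libraries. Tnnt3, a troponin of fast skeletal muscle, had 0.0971, 0.190 and 0.491 CPM in THBru 1 to 3, against 0.351, 0.289 and 0.270 CPM in HFD 1 to 3, and Mylpf, a light chain of its myosin, had 0.721, 0.717 and 0.446 CPM in THBru 1 to 3, against 0.429, 0.520 and 0.878 CPM in HFD 1 to 3. THBru 3 was the library with the epididymis share of 5.19%. No 100-base stretch of Rpl3l occurs in another annotated gene, and the part of that tissue in its level was not tested.

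Rpl17 (chr18:74998558-75003381), a protein at the mouth of the exit tunnel, had 125, 21.8 and 214 CPM in THBru 1 to 3, against 21.7, 20.7 and 23.5 CPM in HFD 1 to 3. THBru 2 lay within the HFD range on this scale and below it after TMM scaling. The other THBru libraries lay far above the HFD range, for a log2 fold change of 2.71 (SE 0.85, edgeR with Benjamini-Hochberg adjusted p = 0.183). Of the 100-base stretches of its transcripts, 42.4% also occur in other annotated genes. Among these, the table lists 15 that are typed as pseudogenes or have a Gm-number or -ps name. Genes taken in this way are called pseudogenes below, although not every one need be typed so. Summed with them, Rpl17 had 332, 270 and 442 CPM in THBru 1 to 3, against 269, 207 and 244 CPM in HFD 1 to 3. The gene itself held 37.6, 8.08 and 48.3% of this sum in THBru 1 to 3, against 8.05, 10.03 and 9.62% in HFD 1 to 3. Refitted on the sums, its log2 fold change was 0.77, beside a median of 0.54 over the 80 genes in the same fit. Of its pseudogenes, Rpl17-ps5 had 87.1, 103 and 99.1 CPM in THBru 1 to 3, against 107, 71.7 and 81.6 CPM in HFD 1 to 3, with overlap. Rpl17-ps10 had 42.2, 69.2 and 44.3 CPM in THBru 1 to 3, against 72.0, 63.9 and 75.1 CPM in HFD 1 to 3, also with overlap. Rpl17-ps8 had 29.6, 34.5 and 31.2 CPM in THBru 1 to 3, against 28.8, 19.0 and 23.5 CPM in HFD 1 to 3, without overlap. How reads of shared sequence were assigned is not given in the sources, so the level of Rpl17 alone is uncertain.

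**Figure D4:**
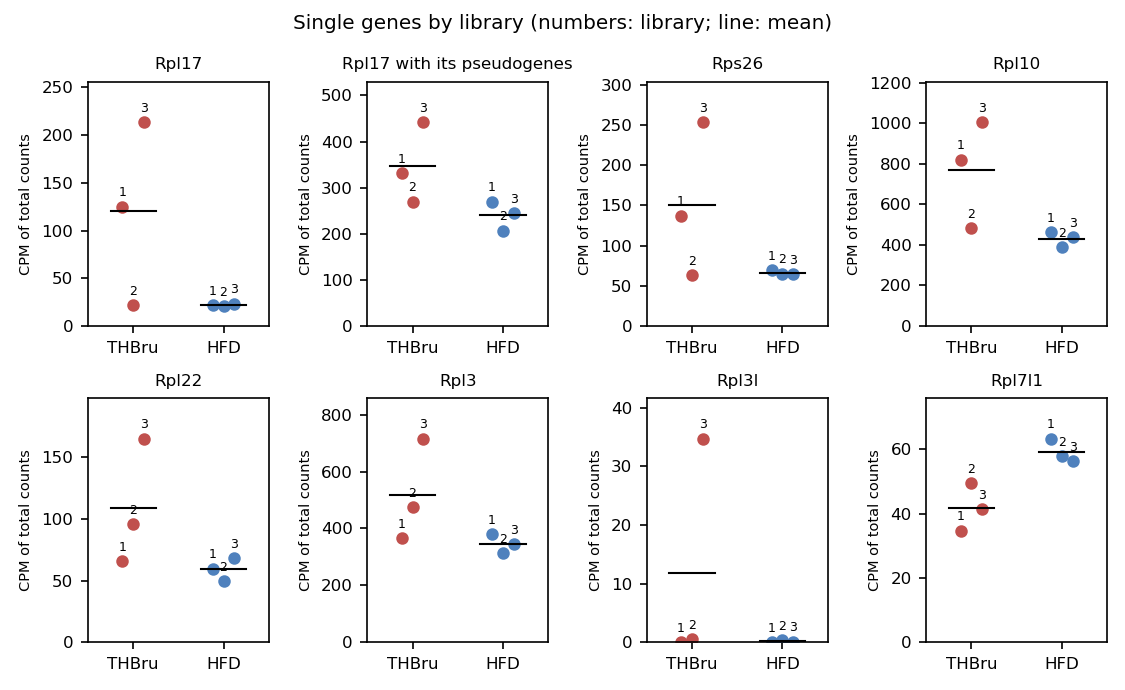
CPM of the total count for single genes, with an axis from 0 in each panel; points are libraries with their number, red for THBru and blue for HFD, and the line is the group mean. Rpl17, Rps26 and Rpl10 are high in THBru 1 and THBru 3, Rpl3l is high only in THBru 3 at 34.7 CPM, and all THBru points of Rpl7l1 are below the HFD points; the second panel shows that Rpl17 summed with its 15 pseudogenes differs less between libraries.

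Shared sequence was common in the family. Of the 82 genes, 74 had at least one 100-base stretch in another annotated gene, 20 had at least 50% of their stretches there and 22 had under 10%. The median log2 fold change was 0.49 over the 20 tested genes with under 10% shared and 0.58 over the 20 with at least 50% shared. Rpl7a, named here after its values were seen, shared 73.5% and had 45.7, 116 and 229 CPM in THBru 1 to 3, against 126, 98.3 and 59.3 CPM in HFD 1 to 3, so it varied within both groups. Summed with its 31 pseudogenes, it had 327, 339 and 426 CPM in THBru 1 to 3, against 340, 315 and 320 CPM in HFD 1 to 3. Across the tested genes without Rpl3l, the SD of the log2 ratio to the HFD mean was 0.51, 0.19 and 0.49 in THBru 1 to 3 for the genes alone and 0.36, 0.16 and 0.37 for the genes summed with their pseudogenes. The medians moved by little, at 0.92, -0.02 and 0.49 for the sums. The 213 genes named as ribosomal protein pseudogenes held 7.74, 8.04 and 6.85% as many counts as the 82 genes in THBru 1 to 3, against 8.45, 7.93 and 8.32% in HFD 1 to 3.

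The paralog pairs gave the following values. Rpl3, which lies near the catalytic centre, had 366, 475 and 715 CPM in THBru 1 to 3, against 379, 312 and 345 CPM in HFD 1 to 3, for a log2 fold change of 0.73 (SE 0.28, edgeR with Benjamini-Hochberg adjusted p = 0.206). THBru 1 was inside the HFD range on this scale, and the groups did not overlap after TMM scaling. Rpl22l1, the paralog that Rpl22 is known to repress in mice, had 3.83, 7.45 and 5.82 CPM in THBru 1 to 3, against 4.31, 5.89 and 6.73 CPM in HFD 1 to 3. The groups overlapped, with a log2 fold change of 0.13 (SE 0.31), beside 0.996 for Rpl22. Rpl7 had 363, 395 and 442 CPM in THBru 1 to 3, against 324, 282 and 337 CPM in HFD 1 to 3, and its THBru libraries were all above its HFD libraries (log2 fold change 0.55, SE 0.29). Rpl7l1 (chr17:46773907-46782656), its paralog, had 34.7, 49.4 and 41.4 CPM in THBru 1 to 3, against 63.2, 57.8 and 56.1 CPM in HFD 1 to 3. It was the only one of the 80 genes whose THBru libraries were all below the HFD libraries on total counts, and after TMM scaling THBru 1 lay inside the HFD range. Its log2 fold change was -0.32 (SE 0.20, edgeR with Benjamini-Hochberg adjusted p = 0.354) and stayed negative in all 14 alternative fits. Only 1.36% of its 100-base stretches occur elsewhere.

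The other named pairs gave smaller contrasts. Rps4x, encoded on the X chromosome, had 336, 324 and 376 CPM in THBru 1 to 3, against 280, 241 and 284 CPM in HFD 1 to 3, without overlap on either scale (log2 fold change 0.59, SE 0.32). Rps4l, outside the 82 genes by its transcript type, had 5.89, 19.6 and 34.0 CPM in THBru 1 to 3, against 20.4, 22.8 and 29.3 CPM in HFD 1 to 3. Rpl26, which binds the p53 mRNA, had 146, 120 and 287 CPM in THBru 1 to 3, against 103, 111 and 124 CPM in HFD 1 to 3, where THBru 2 was inside the HFD range (log2 fold change 0.89, SE 0.38). Rpl39, a small protein of the exit tunnel, had 8.27, 10.6 and 14.6 CPM in THBru 1 to 3, against 11.5, 8.83 and 8.38 CPM in HFD 1 to 3 (log2 fold change 0.37, SE 0.27). Its groups overlapped. Rps27 and the p53-inducible Rps27l had log2 fold changes of -0.16 (SE 0.52) and 0.40 (SE 0.46). The 6 libraries of Rps27 lay between 3.54 and 14.6 CPM, both of these in HFD, and the THBru libraries fell between them.

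The remaining genes at the low end were Rpl30, Rplp2 and Rpl38. Rpl30 had 20.9, 30.7 and 29.5 CPM in THBru 1 to 3, against 31.3, 27.8 and 33.9 CPM in HFD 1 to 3, with a log2 fold change of -0.04 (SE 0.19). Rpl38, a protein needed for normal axial patterning in mice, had 2.36, 4.52 and 9.76 CPM in THBru 1 to 3, against 8.03, 2.74 and 6.19 CPM in HFD 1 to 3, with a log2 fold change of 0.04 (SE 0.55). Both genes overlapped between groups. Summed with their pseudogenes, their log2 fold changes were 0.36 and 0.54. At the high end of abundance, Rpl4 (chr9:64173375-64178666) had 735, 599 and 1092 CPM in THBru 1 to 3, against 594, 506 and 570 CPM in HFD 1 to 3. Its log2 fold change was 0.75 (SE 0.38). THBru 2 was just above the highest HFD library on total counts and inside the HFD range after TMM scaling.

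THBru 2 alone, the library with an adipocyte share inside the HFD range, gave smaller values for most of these genes. Of the genes with larger values in the full fit, Rpl22 had a log2 fold change of 0.55 and Rpl3 of 0.31 against the HFD libraries, while Rplp0 (0.04), Rpl10 (0.02) and Rpl4 (-0.04) were near 0. Rpl26 had -0.058 and Rpl17 -0.16. Rpl7l1 kept its direction at -0.41. None of these values passed edgeR's test with Benjamini-Hochberg adjustment, the smallest adjusted p among the 80 genes being 0.372, and a fit with 1 library in a group takes its spread from the other group.

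The length that counts and FPKM imply, which is not a measured mRNA length, varied with the fold change over the whole table. The genes were therefore set beside others of the same implied length. The median log2 fold change of other tested genes was 0.29 at under 500 bases, 0.12 at 1000 to 1500 bases and 0.04 at 3000 to 5000 bases. In the same bins the ribosomal protein genes had 0.504 (1 gene), 0.45 (14 genes) and 0.57 (15 genes). In the full fit their medians stood above those of other genes in each of these bins. In THBru 2 alone, the medians of the log2 ratio to the HFD mean were 0.20, -0.05 and 0.06 for ribosomal protein genes and 0, 0 and -0.03 for other genes in these bins. The remaining bins were 500 to 1000 (9 genes), 1500 to 2000 (18 genes), 2000 to 3000 (21 genes) and from 5000 bases (2 genes). There, THBru 2 had -0.17, -0.01, 0.04 and 0.02 for ribosomal protein genes and 0, 0.006, -0.005 and -0.02 for other genes. The 13 genes with a pyrimidine run exactly at an annotated start and the 47 tested genes with a promoter entry and no such run had medians of 0.54 and 0.51.

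Of the other genes of the translation machinery, listed by role, none passed the test either. Rpl36al and Fau encode ribosomal proteins under names that the rule does not take. Rpl36al, a copy of Rpl36a, had 53.1, 17.9 and 52.5 CPM in THBru 1 to 3, against 19.3, 20.6 and 24.1 CPM in HFD 1 to 3, so THBru 2 was the lowest library. Fau, which encodes a small-subunit protein fused to a ubiquitin-like protein, had 57.6, 55.9 and 85.5 CPM in THBru 1 to 3, against 45.5, 45.0 and 58.0 CPM in HFD 1 to 3. Of 7 tested elongation factor genes, which carry tRNAs to the ribosome and move it along, 5 were positive and 2 negative, with a median of 0.55. Eef1d and Eef1b2, exchange factors of eEF1A, had log2 fold changes of 0.62 (SE 0.25) and 0.55 (SE 0.31). Of 13 other mRNAs known for TOP starts, 11 were positive and 2 negative, with a median of 0.36. The negative pair was Nap1l1, a histone chaperone (-1.73, SE 0.52), and Vim, the filament of mesenchymal cells (-2.07, SE 0.67). Vim had 219, 867 and 143 CPM in THBru 1 to 3, against 1997, 1866 and 1474 CPM in HFD 1 to 3.

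Lists that supply or regulate the ribosome, and the list of mitochondrial ribosomal proteins, were nearer to the table's median of 0.08. The 48 tested initiation factor genes had a median log2 fold change of 0.16 (31 positive, 17 negative), with the smallest p for Eif3m (0.79, SE 0.24) and Eif3i (0.73, SE 0.26) of the eIF3 complex. The 44 genes of rRNA processing and ribosome assembly had 0.01 (23 positive, 21 negative), with Ltv1 and Gtpbp4, factors of small- and large-subunit assembly, at -0.74 (SE 0.19) and -0.55 (SE 0.17). The 13 tested RNA polymerase I genes, which transcribe rRNA, had 0.04 (7 positive, 6 negative), with the 2 largest subunits Polr1a and Polr1b at -0.53 (SE 0.18) and 0.53 (SE 0.27). The 6 host genes of small nucleolar RNAs had 0.05 (3 positive, 3 negative), among them Gas5 at 0.30 (SE 0.24) and Snhg5 at -0.33 (SE 0.31). The 78 mitochondrial ribosomal protein genes had -0.07 (27 positive, 51 negative), with Mrpl52 at 1.04 (SE 0.42) and Mrpl20 at -0.55 (SE 0.24). The 17 genes that control TOP mRNA translation had 0.00 (9 positive, 8 negative), with Rheb, the activator of mTORC1, at -0.51 (SE 0.16) and Deptor, its inhibitor, at -1.87 (SE 0.60).

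Ratios of summed counts within a library need no scaling. Most elongation factor counts came from Eef1a1 and Eef2, named here after the values were seen. They had 5940 and 2881 CPM in THBru 1, beside 0.941% of counts for the whole list, so the ratio to this list mainly reflects them. Counts of the 82 genes per count of elongation factor genes were 1.27, 1.39 and 1.26 in THBru 1 to 3, against 1.29, 1.32 and 1.37 in HFD 1 to 3, with overlapping groups and means of 1.31 ± 0.0737 in THBru and 1.33 ± 0.0399 in HFD (SD, n = 3 each). Per count of initiation factor genes they were 2.36, 1.73 and 2.31 in THBru 1 to 3, against 1.52, 1.35 and 1.504 in HFD 1 to 3. The groups did not overlap, and THBru 2 was the lowest of the THBru libraries. Per count of rRNA processing and assembly genes they were 9.26, 6.66 and 8.47 in THBru 1 to 3, against 5.51, 5.63 and 5.96 in HFD 1 to 3, again without overlap. Per count of mitochondrial ribosomal protein genes they were 12.9, 7.48 and 11.8 in THBru 1 to 3, against 7.49, 7.15 and 6.45 in HFD 1 to 3, where THBru 2 lay inside the HFD range. On TMM-scaled CPM, the median log2 ratio of THBru 2 to the HFD mean was -0.06 for elongation factors, -0.16 for initiation factors, -0.32 for rRNA processing and assembly and -0.10 for mitochondrial ribosomal proteins. Beside these ratios, the adipocyte share was lowest and the general epithelium share highest in THBru 1 and THBru 3.

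**Figure D5:**
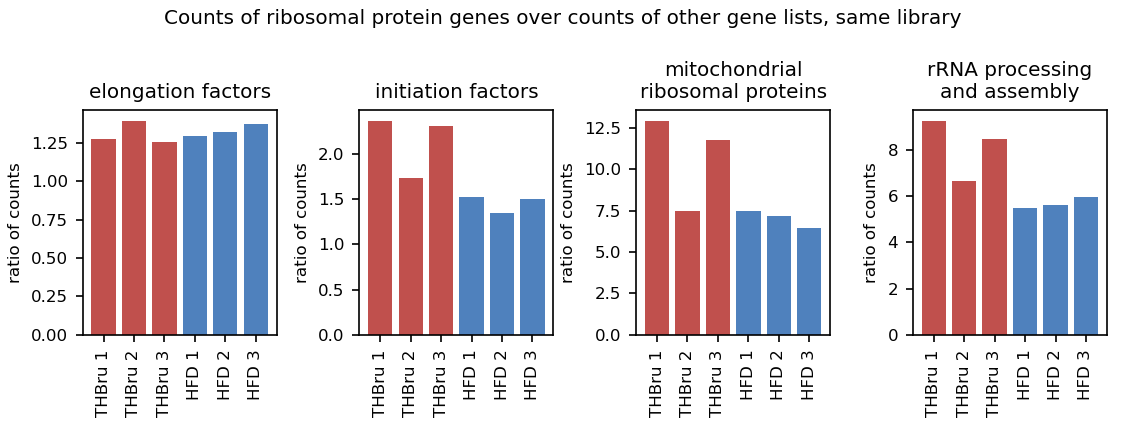
Counts of the 82 ribosomal protein genes divided by counts of 4 other gene lists in the same library (ratio, axis from 0); bars are libraries, THBru in red and HFD in blue. The ratio to elongation factors is level at 1.26 to 1.39 over the libraries, and the other 3 ratios are highest in THBru 1 and THBru 3.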

How the data were processed

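RNA of 3 THBru and 3 HFD samples was measured. Per the file headers, the deposited values are raw counts for each gene, all whole, and FPKM from the authors, both for every sample. The submitters' processing notes name StringTie 2.1.6, HISAT2 2.2.1 and cutadapt 1.9, beside edgeR and DESeq2, without their roles. No source used here gives the counting program, the strand setting or the build, so counts of overlapping genes such as Rpl12 and Lrsam1 cannot be assigned to a strand. All 82 members matched GENCODE M21 (GRCm38) by identifier and 70 also by coordinates. Coordinates are those of the table, read as GRCm38.

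The 32819 rows were summed by symbol. edgeR 4.0.16 (R 4.3.3) fitted THBru against HFD by quasi-likelihood with robust dispersion, TMM scaling and the total count as library size, on the 16140 genes whose FPKM averaged 0.5 or more over the 6 samples. p-values are two-sided and adjusted by Benjamini-Hochberg over all genes, with a threshold of 0.05. The standard error is the fold change divided by the root of the F statistic. The steps were tested on counts simulated with the spread of the HFD libraries in both groups. The THBru libraries spread more, so this does not show how the fit behaves on them. CPM uses total counts except where TMM scaling is stated. A count of 3, the limit that 0 allows, was 0.0390 to 0.0446 CPM, for counting error only. Look-alikes, called pseudogenes above, are table rows that share a 100-base stretch with a member in GENCODE M21 transcripts. Each is typed as a pseudogene or has a Gm-number or -ps name. Not all are typed so: Gm28037, a look-alike of Rpl24, is typed processed_transcript. Sequences are from RefSeq promoter entries, found for 62 members.

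Members, lists and tests were chosen with earlier results of these data known, and the reading of protein_coding as one of several listed types is a choice: it is the only type of 10 members. Named genes are the paralog pairs, the stalk genes, Rpsa and Rps6, the 5 highest and 5 lowest fold changes, the 3 highest mean FPKM, and of each other list the 2 smallest p. The 2 most abundant genes of each cell type list stand in the closing section. Alternatives were DESeq2 1.42.0, other scalings and filters, each library left out, THBru 2 alone, a replicate block and, chosen after seeing the data, look-alikes summed. The summary of 1 gene list is not reported here.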

Additional observations from a re-analysis of the deposited data

How the results depend on the processing

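The median log2 fold change of the ribosomal protein genes, 0.53, was positive in all 14 alternative fits and moved by more than the spread between libraries in 1, THBru 2 alone (0.0038). The number of members called was 0 in 12 of the 14, 3 with DESeq2 (Rpl17, Rpl22 and Rpl3, of 10.7% of genes called higher and 7.08% lower) and 0 to 14 with 1 library left out, where 14 came without THBru 2. Genes called over the whole table, 19 in the fit above, numbered 53 on total counts, 2773 with DESeq2, 30 at a mean FPKM of at least 1, 356 with THBru 2 alone and 0 to 1552 with 1 library left out. Same-numbered samples did not deviate together (correlations 0.05, -0.01 and -0.06). This check cannot decide whether the numbers pair the samples, because each THBru library deviated in genes of a different tissue. With a replicate block 0 genes and 0 members were called. Signs turned with THBru 2 alone for Rpl26 (-0.058), Rpl39 (-0.0041), Rps27l (-0.39), Rplp1 (-0.22), Rpsa (-0.16), Rps6 (-0.0084), Rps26 (-0.23), Rpl17 (-0.16), Rpl38 (-0.46), Rpl4 (-0.040), Rpl36al (-0.40), Eef1b2 (-0.12), Gas5 (-0.17), Car3 (0.023) and Ighm (0.64). Rpl38 was -0.027 on total counts and -0.022 without a filter, Rplp2 0.0010 at a mean FPKM of at least 1, Rps27 0.022 with the block, and Rpl30 0.36 with look-alikes summed. With 1 library left out, the values ran from -0.039 to 0.26 for Rpl22l1, -0.54 to 0.31 for Rps27, -0.26 to 0.69 for Rps27l, -0.15 to 0.15 for Rplp2, -0.18 to 0.025 for Rpl30, -0.49 to 0.37 for Rpl38, -1.03 to 0.37 for Ighm, -0.51 to 0.036 for Cd2 and -0.88 to 7.90 for Smcp. The causes were not tested. Depth limits Rpl3l, Rpl10l and Rpl39l, which were at or near 0 in most libraries.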

Other observations

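The most abundant genes of the cell type lists differed between the libraries. Svs2 and Svs5, seminal vesicle secretory proteins, had 171647 and 78716 CPM in THBru 1, against at most 245 and 116 CPM in HFD libraries. Gpx5 and Adam7, made by the epididymal epithelium, had 24415 and 12757 CPM in THBru 3, against at most 30.9 and 16.6 CPM in HFD libraries. The kidney transporters Slc34a1 and Slc12a3 had 360 and 139 CPM in THBru 2, against at most 0.693 and 0.392 CPM in HFD libraries. The epithelial keratins Krt18 and Krt8 had 396, 98.0 and 371 CPM and 188, 137 and 303 CPM in THBru 1 to 3, against at most 14.3 and 42.5 CPM in HFD libraries. Among fat and immune cell genes, Fabp4 had 1171, 7374 and 588 CPM in THBru 1 to 3, against 4746, 9085 and 9588 CPM in HFD 1 to 3, and Lyz2 had 146, 461 and 70.6 CPM in THBru 1 to 3, against 1673, 1029 and 854 CPM in HFD 1 to 3. Car3 had 2074, 8345 and 1065 CPM in THBru 1 to 3, against 6230, 5086 and 11016 CPM in HFD 1 to 3. Csf1r, of the macrophage list, had 73.3, 243 and 57.5 CPM in THBru 1 to 3, against 706, 313 and 316 CPM in HFD 1 to 3. The sperm gene Smcp had 23.3 CPM in THBru 3 and at most 0.416 CPM elsewhere. Gapdhs, of the same list, was present in every library, with 3.23, 3.42 and 9.69 CPM in THBru 1 to 3, against 1.81, 2.14 and 1.81 CPM in HFD 1 to 3. The T and B cell list took 0.005 to 0.022% of counts in THBru and 0.008 to 0.022% in HFD, and its genes Ighm and Cd2 overlapped between the groups. The kidney list took 0.089% of counts in THBru 2 and the sperm and spermatid list 0.008% in THBru 3. Their part in the ribosomal protein results was not tested.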
